A study of Homo sapiens with 12 samples.

Results

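The transcripts described here encode 5 enzymes of phenylalanine and tyrosine breakdown, TAT, HPD, HGD, GSTZ1 and FAH, out of 61806 gene IDs in the count table. They were listed by their place in the pathway, with no threshold on a measured value, and all 5 were found in the table by symbol. The list was drawn up after the rise of HPD with the CD146 shRNA was known, so HPD is described in that comparison without a test, and the calls of the other members are not independent evidence about the pathway. RNA-seq of poly(A)-selected RNA was made from 12 libraries, which the labels give as human liver cancer lines. In libraries labelled Hep3B, whose identity is in doubt because they nearly lack hepatocyte transcripts, a CD146 shRNA, against the adhesion molecule encoded by MCAM, was set against a control shRNA, and both shRNAs were under a tetracycline-inducible (Tet-on) system. In HepG2, a CD146 vector (overexpression) was set against the pLVX vector. Each of the 4 groups had 3 libraries. The titles number the shRNA libraries sh1 to sh3, and the labels do not say whether the numbers mark hairpins or whether replicates came from separate cultures, so the tests rest on the variation among these libraries, part of which could be technical.

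Tyrosine, to which phenylalanine is also converted, is broken down mainly in the liver, in hepatocytes. TAT, tyrosine aminotransferase, removes the amino group, and HPD, a dioxygenase, turns the resulting 4-hydroxyphenylpyruvate into homogentisate. HGD, homogentisate dioxygenase, opens the aromatic ring, GSTZ1, maleylacetoacetate isomerase, rearranges the product, and FAH, fumarylacetoacetate hydrolase, splits it into fumarate and acetoacetate. Loss of HGD function is known as the cause of alkaptonuria, loss of FAH as the cause of a hereditary tyrosinaemia, and HPD is the target of the drug nitisinone.

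HPD had the largest difference of the 5 between the CD146 shRNA and the control shRNA, and the letters before its 2 RefSeq transcript starts are therefore shown. RefSeq (GRCh38.p14) places HPD on the minus strand of chromosome 12, with 1 start at position 121888611 and another at 121858859. The first lies outside the HPD gene of GENCODE 29, which ends at 121863596, and the second is also the 5′ end of the principal HPD transcript in GENCODE 29. Another protein-coding HPD transcript of GENCODE 29 has its 5′ end at 121863596, and the bases before that end were not searched. The windows hold the 250 bases before each start, chr12:121888612-121888861 and chr12:121858860-121859109, written 5′ to 3′ on the minus strand, and capitals mark the 1 match to a searched motif.
HPD distal start: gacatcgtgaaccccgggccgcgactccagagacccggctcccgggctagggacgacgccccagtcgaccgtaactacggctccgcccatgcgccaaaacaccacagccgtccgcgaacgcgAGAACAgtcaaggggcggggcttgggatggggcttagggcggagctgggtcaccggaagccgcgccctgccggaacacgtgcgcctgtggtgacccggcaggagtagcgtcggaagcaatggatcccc
HPD proximal start: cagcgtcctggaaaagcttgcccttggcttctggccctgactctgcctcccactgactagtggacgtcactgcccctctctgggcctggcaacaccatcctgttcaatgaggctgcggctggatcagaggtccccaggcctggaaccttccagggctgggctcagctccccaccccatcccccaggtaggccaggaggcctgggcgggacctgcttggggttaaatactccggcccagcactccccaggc
The distal window held 29 CG pairs and the proximal window 5, and 85.9% and 34.3% of all 35116 RefSeq windows of that length held fewer. Exact matches on both strands were sought for motifs of basal and liver transcription factors. The basal promoter motif was TATAAA and that of the C/EBP factors TTNNGCAA. The motif of HNF4 was CAAAGTCCA, that of the FOXA factors TGTTTAC and that of the glucocorticoid receptor AGAACA. They occur in 10.7%, 9.05%, 0.325%, 2.98% and 12.4% of all windows, in that order. AGAACA was found once in the distal window, and the proximal window held none of these letters. The counts are per gene and do not tell which start was used. The 1 window of GSTZ1 and the 2 of FAH held none either.

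Libraries held 14116977 to 18129816 counts with the CD146 shRNA, 13777262 to 16678519 with the control shRNA, 13309430 to 16862507 with CD146 overexpression and 12772991 to 16735662 with pLVX. MCAM averaged 24.4 ± 2.44 CPM (counts per 1000000 counts) under the CD146 shRNA, against 115 ± 3.53 CPM under the control shRNA, and 1932 ± 30.9 CPM with overexpression and 23.4 ± 0.407 CPM with pLVX (SD, n = 3 each). Hepatocyte markers were near absent from the libraries labelled Hep3B: of 10 hepatocyte markers, 9 had under 10 counts in every control shRNA library, HNF4A being the other, and their summed level was 9.38 to 71.7 CPM with the CD146 shRNA and 7.63 to 10.3 CPM with the control shRNA, against 51891 to 57686 CPM in HepG2. CD146 shRNA replicate 3 stood apart, with 867 counts of the 9 markers other than HNF4A, against 18 and 29 in the other CD146 shRNA libraries and 7 to 14 with the control shRNA. That is 0.109% of the pLVX level of these markers. With HPD and HGD in the pLVX proportion to these markers, that share would be 3.08 HPD and 1.96 HGD counts. The library held 2419 and 41. The source of the marker transcripts is not known, and the pLVX proportion was assumed and not tested. TTR, alone among the 9, was higher in replicates 1 and 2, at 12 and 20 counts, than in replicate 3, at 2 counts. Of 5 stromal markers 3 rose and 1 fell with the CD146 shRNA, where 26.8% of all genes tested rose and 28.5% fell. Their summed level was 465 to 495 CPM with the CD146 shRNA and 593 to 606 CPM with the control shRNA. Of 5 cholangiocyte markers 2 fell and 0 rose, beside those shares of all genes. Their summed level was 160 to 164 CPM with the CD146 shRNA and 190 to 205 CPM with the control shRNA. In HepG2, 5 of the 10 hepatocyte markers fell with overexpression and HNF4A rose, while 3 cholangiocyte markers rose and 1 stromal marker fell. Of all genes tested in HepG2, 10.3% fell and 9.55% rose. The part of these markers in the results was not tested, and fewer cells of a kind cannot be told apart from less RNA per cell.

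HPD, the second enzyme of the route, was high in all 4 groups and differed between the shRNA groups. HPD had 75.7, 77.5 and 77.1 FPKM (fragments per kilobase per 1000000 reads) with the CD146 shRNA, against 30.2, 28.8 and 27.2 FPKM with the control shRNA. Every CD146 shRNA library lay above every control shRNA library. This difference was known when the list was drawn up, so the values here describe it and are no further evidence for it. On the CPM scale HPD averaged 173 ± 3.88 with the CD146 shRNA and 63.2 ± 3.15 with the control shRNA (SD, n = 3 each), a log2 fold change of 1.45 (SE 0.05), or 2.74-fold. Of the 16968 genes tested, 2.61% had a larger log2 fold change. The FPKM level with the CD146 shRNA was 85.1% of the pLVX level in HepG2, where that of the control shRNA was 31.9%. With each of the 6 libraries left out in turn the log2 fold change lay between 1.41 and 1.48. An antisense gene, AC079360.1, shares 801 bases with HPD in GENCODE 29 and had 0 to 27 counts in a library.

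In HepG2, HPD had 96.8, 97.3 and 98.8 FPKM with CD146 overexpression, against 91.1, 91.4 and 88.2 FPKM with pLVX. The groups did not overlap, but the gap was small, and the share of all genes whose groups separate was not counted. With TMM scaling HPD averaged 212 ± 1.95 CPM with overexpression and 206 ± 4.48 CPM with pLVX (SD, n = 3 each), a log2 fold change of 0.042 (SE 0.035) that edgeR did not call (adjusted p = 0.448, approximate 95% interval -0.026 to 0.11). Without a scaling factor the log2 fold change was 0.11 and was called (adjusted p = 0.0117), and limma on the FPKM also called it.

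HGD, the next enzyme, rose with the CD146 shRNA at a level far under that of HPD. HGD had 53, 62 and 41 counts with the CD146 shRNA, against 26, 25 and 24 counts with the control shRNA. The groups did not overlap, but the share of all genes whose groups separate was not counted, so nothing is read from this. HGD averaged 3.19 ± 0.423 CPM with the CD146 shRNA and 1.59 ± 0.194 CPM with the control shRNA (SD, n = 3 each), a log2 fold change of 1.02 (SE 0.22, edgeR adjusted p = 1.6e-04). Without CD146 shRNA replicate 3, the library with hepatocyte transcripts, HGD was called too, with a log2 fold change of 1.06, and that of HPD was 1.44. On log2(FPKM + 1), where low values are damped, the difference was 0.44 and still called by limma (adjusted p = 0.00663). In HepG2, HGD had 49.1, 50.5 and 49.4 FPKM with CD146 overexpression, against 48.3, 44.98 and 49.6 FPKM with pLVX. These values overlapped, and the log2 fold change of -0.010 (SE 0.040) was not called (edgeR adjusted p = 0.903, approximate 95% interval -0.089 to 0.069). No other counted gene overlaps HGD in GENCODE 29.

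TAT, the entry enzyme, was near the floor of detection in the libraries labelled Hep3B. TAT had 5, 6 and 11 counts with the CD146 shRNA, against 2, 3 and 7 counts with the control shRNA. The groups overlapped, and TAT did not pass the filter on low counts in this comparison, so it has no test there. In HepG2, TAT had 1.75, 1.58 and 1.49 FPKM with CD146 overexpression, against 1.41, 1.73 and 1.5 FPKM with pLVX. These overlapped as well, with a log2 fold change of -0.027 (SE 0.12, edgeR adjusted p = 0.914, approximate 95% interval -0.26 to 0.21). The antisense gene TAT-AS1 lies over 11342 bases of TAT and had 1 to 8 counts in a library, and reads of the pair could not be told apart without the strand setting.

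GSTZ1, which acts after HGD, was the member with the most even level over the 4 groups. GSTZ1 had 1.26, 1.31 and 1.06 FPKM with the CD146 shRNA, against 1.40, 1.21 and 1.17 FPKM with the control shRNA. The groups overlapped, and the log2 fold change of -0.019 (SE 0.11) was not called (edgeR adjusted p = 0.9, approximate 95% interval -0.24 to 0.20). Without CD146 shRNA replicate 3 it was 0.054, also not called. GSTZ1 had 1.49, 1.53 and 1.72 FPKM with CD146 overexpression, against 1.60, 1.24 and 1.37 FPKM with pLVX. Here too the groups overlapped, and the log2 fold change of 0.11 (SE 0.10) was not called (edgeR adjusted p = 0.503, approximate 95% interval -0.088 to 0.31).

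FAH, the last enzyme of the route, was not called in either comparison. FAH had 40, 47 and 27 counts with the CD146 shRNA, against 37, 40 and 41 counts with the control shRNA. The groups overlapped, and the interval of the log2 fold change was wide at these counts, -0.52 to 0.34 around -0.089 (edgeR adjusted p = 0.754). Without CD146 shRNA replicate 3 the value was 0.0047, also not called. FAH had 3.66, 3.66 and 3.51 FPKM with CD146 overexpression, against 3.46, 3.33 and 3.32 FPKM with pLVX. The FPKM values did not overlap, whereas the TMM-scaled levels of 35.9 ± 0.953 CPM with overexpression and 35.2 ± 0.979 CPM with pLVX did (SD, n = 3 each; log2 fold change 0.028, SE 0.061, edgeR adjusted p = 0.814).

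**Figure D1:**
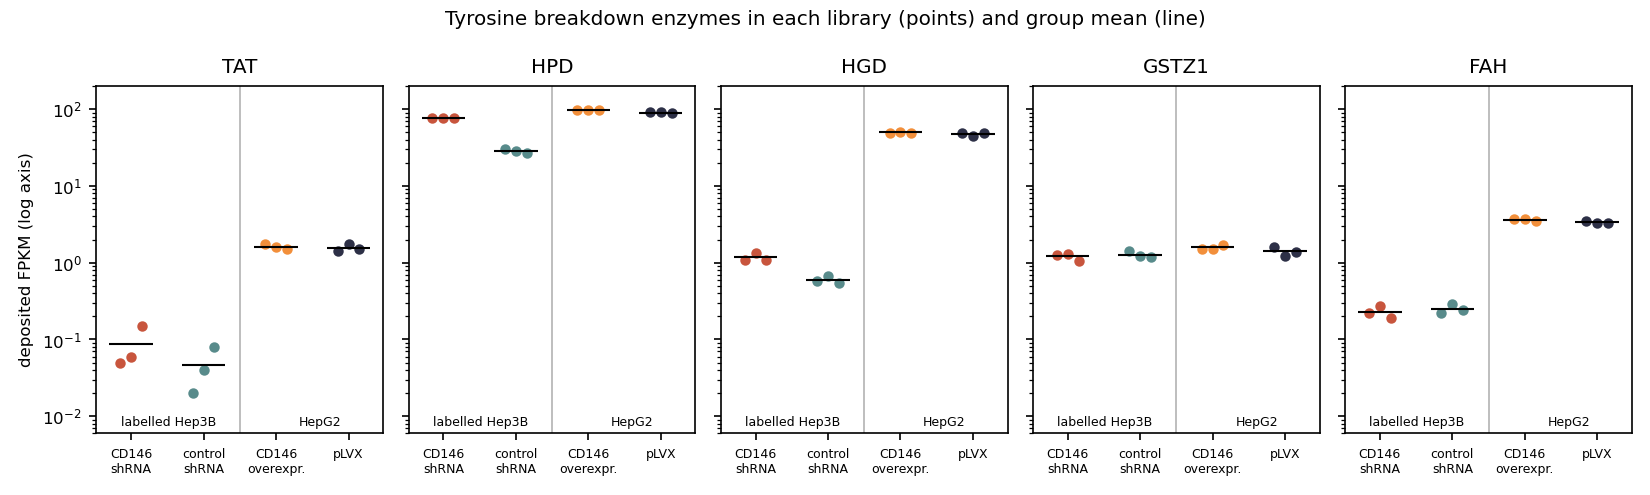
Deposited FPKM (log axis) of the 5 enzymes in each of the 12 libraries; points are libraries and lines are group means. HPD with the CD146 shRNA lies between its control shRNA and its HepG2 levels, whereas TAT, HGD and FAH stay far under their HepG2 levels in both shRNA groups and GSTZ1 is near even.

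**Figure D2:**
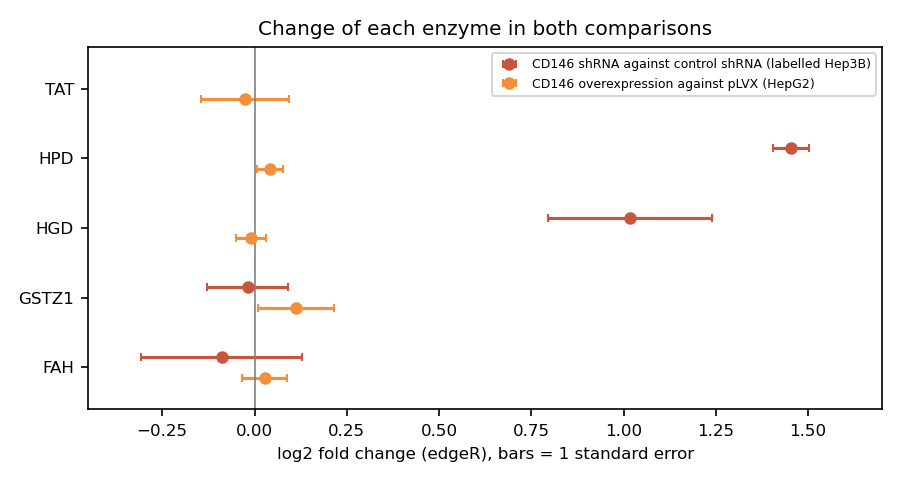
Log2 fold change of each enzyme (edgeR), with bars of 1 standard error, for the CD146 shRNA against the control shRNA and for CD146 overexpression against pLVX. HPD (1.45) and HGD (1.02) stand apart with the CD146 shRNA, every overexpression value lies between -0.027 and 0.11, and TAT has no value with the CD146 shRNA because of its low counts.

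With the CD146 shRNA, HGD was called higher, and GSTZ1 and FAH were not called. Of all 16968 genes tested, 55.3% were called, 26.8% higher and 28.5% lower. HPD, already known to be higher, is left out of these calls. The median log2 fold change of the 4 members that passed the filter, HPD included, was 0.50, against 0.0010 over all genes. Because HPD was known to differ, nothing is read from these calls or from this median. With CD146 overexpression, 0 of 5 members were called by edgeR, where 19.8% of 15300 genes were (9.55% higher and 10.3% lower). All 5 also had an unadjusted p above 0.05, while HPD was called by limma and without a scaling factor. The median log2 fold change of the 5 was 0.028, against 0.0020 over all genes. Without scaling, 79.5% of all genes called in this comparison were higher, and by limma on log2(FPKM + 0.1) 75.4%, against 48.1% with TMM.

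The effect of higher CD146 was also compared between the lines, by subtracting control minus CD146 shRNA from overexpression minus pLVX in 1 fit of all 12 libraries. Line and kind of perturbation cannot be told apart in this contrast. It was called for HGD and not for TAT, GSTZ1 and FAH, where 36.4% of 18870 genes were called, 17.2% higher and 19.2% lower. For HGD the difference was 1.01 on the log2 scale (SE 0.20, edgeR adjusted p = 2.7e-05). In the same fit HGD had 1.02 with the CD146 shRNA and -0.0079 with overexpression. Its contrast is thus nearly all its knockdown difference and not separate evidence. For HPD the contrast was 1.50 (SE 0.06), given without a test because it is nearly all the knockdown difference already known. TAT had a difference of 0.80 with a wide error (SE 0.54, edgeR adjusted p = 0.27), and it lay between 0.29 and 1.42 with 1 library left out.

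Across the lines, the route was uneven. In mean FPKM over 6 libraries each, HGD was 55.0-fold higher in HepG2 than in the libraries labelled Hep3B (48.6 against 0.885 FPKM), TAT 23.6-fold (1.58 against 0.0667 FPKM) and FAH 14.6-fold (3.49 against 0.238 FPKM). GSTZ1 was 1.21-fold higher (1.49 against 1.24 FPKM). HPD was 1.78-fold higher in HepG2 (93.9 against 52.7 FPKM). For HPD, HGD, TAT and FAH every HepG2 library lay above every library labelled Hep3B. The share of all genes that separate in this way was not counted, so nothing is read from it about these members. In order of level, HPD was highest with overexpression, then pLVX, the CD146 shRNA and the control shRNA, with no overlap between neighbours. TAT and HGD ran in the same order, but the 2 HepG2 groups overlapped for both, as did the 2 shRNA groups for TAT. For GSTZ1 all neighbours in the order overlapped, and for FAH the shRNA groups did. These comparisons describe 2 lines that differ in much else and carry no test.

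HPD alone therefore made up most of the summed FPKM of the 5 enzymes in the libraries labelled Hep3B. Its share was 96.6 ± 0.296% with the CD146 shRNA and 93.0 ± 0.161% with the control shRNA, and 63.4 ± 0.408% with overexpression and 62.6 ± 1.40% with pLVX (SD, n = 3 each). HGD took 1.47 ± 0.169% with the CD146 shRNA and 1.94 ± 0.219% with the control shRNA, and 32.2 ± 0.393% with overexpression and 33.0 ± 1.45% with pLVX. The ratio of HPD to HGD FPKM was 66.2 ± 7.34 with the CD146 shRNA and 48.3 ± 5.22 with the control shRNA, and 1.97 ± 0.0363 with overexpression and 1.898 ± 0.127 with pLVX. The libraries labelled Hep3B thus held many HPD transcripts for each transcript of the enzymes before and after it. The shares hold for the deposited FPKM only, in which the lengths set GSTZ1 and FAH low beside HPD, and were not computed by principal transcript.

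The level of one enzyme against another depends on the gene length behind the FPKM. The deposited FPKM imply a length of 8361 bases for GSTZ1 and 10162 bases for FAH, which is 6.25 and 4.72 times the longest principal transcript in GENCODE 29 (1338 and 2152 bases). For HPD (2223 bases), HGD (2682 bases) and TAT (5374 bases) the implied length was 1.57, 1.34 and 1.35 times that of the principal transcript. Scaled by the principal transcript, a choice made after seeing the data, FAH stood at 17.1 ± 0.405 counts per kilobase per 1000000 counts with overexpression and 15.9 ± 0.359 with pLVX, in place of 3.61 ± 0.0866 and 3.37 ± 0.0781 in the deposited FPKM. GSTZ1 stood at 7.55 ± 0.822 with the CD146 shRNA and 7.88 ± 0.754 with the control shRNA, in place of 1.21 ± 0.132 and 1.26 ± 0.123. In the libraries labelled Hep3B GSTZ1 had the second highest mean on both scales. HGD there stood at 1.57 ± 0.199 with the CD146 shRNA and 0.80 ± 0.095 with the control shRNA when scaled by the principal transcript. In the deposited FPKM it stood at 1.17 ± 0.147 and 0.60 ± 0.0721. HPD stayed highest in all 4 groups. In HepG2 the order by principal transcript was HPD, HGD, FAH, GSTZ1 and TAT, whereas the deposited FPKM put the mean of TAT above that of GSTZ1.

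**Figure D3:**
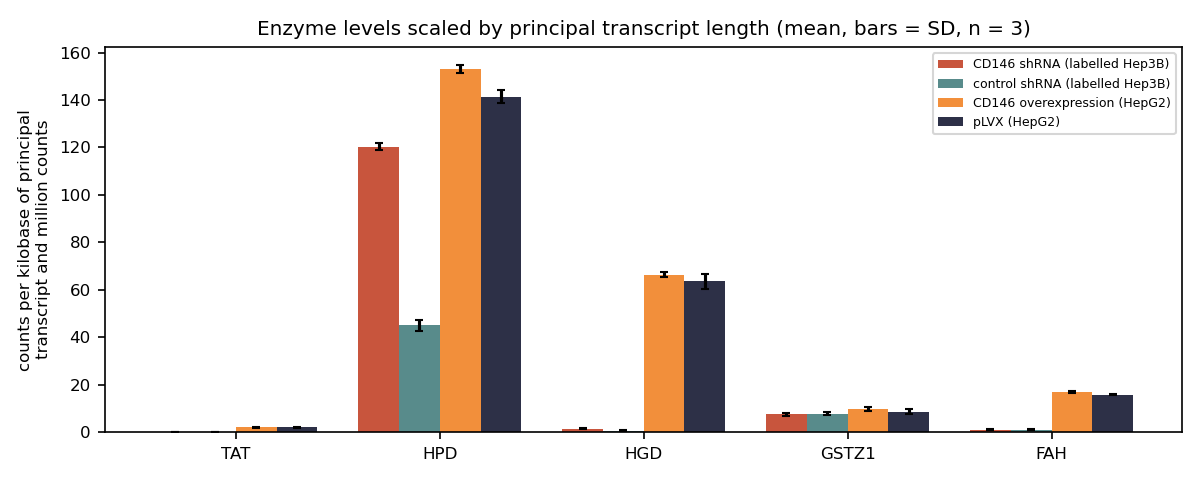
Level of each enzyme in counts per kilobase of the principal GENCODE 29 transcript per 1000000 counts, as mean with SD bars (n = 3) in the 4 groups. HPD leads in every group, HGD follows in HepG2 but is nearly absent in the libraries labelled Hep3B, and TAT is the lowest member.

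In GRCh38 (GENCODE 29), TAT lies on chromosome 16 from 71565660 to 71577130, HPD on chromosome 12 from 121839527 to 121863596 and HGD on chromosome 3 from 120628173 to 120682571, all on the minus strand. GSTZ1 lies on chromosome 14 from 77320884 to 77331597 and FAH on chromosome 15 from 80152490 to 80186946, both on the plus strand. The 5 members thus lie on 5 chromosomes. GSTZ1 shares 1 base with POMT2, and FAH spans the lincRNA gene AC087761.1, which had 0 to 2 counts.

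The paralogs of the route's enzymes had another distribution. HPDL, an HPD-like dioxygenase, averaged 12.2 ± 0.836 FPKM with the CD146 shRNA and 16.8 ± 1.82 FPKM with the control shRNA, and 0.117 ± 0.0757 FPKM with overexpression and 0.127 ± 0.0451 FPKM with pLVX (SD, n = 3 each). HPDL fell with the CD146 shRNA (log2 fold change -0.42, SE 0.08, edgeR adjusted p = 1.6e-05), where HPD was higher, and had 1 to 4 counts in each HepG2 library, too few for a test. FAHD2B, an FAH domain protein, fell as well (-0.38), and FAHD1 and FAHD2A were not called. With overexpression 0 of the 3 paralogs tested were called, where 19.8% of all genes were.

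Other listed enzymes act on tyrosine, phenylalanine or their keto acids. Of the 5 tested with the CD146 shRNA, 1 rose and 2 fell, where 26.8% of all genes rose and 28.5% fell. GOT2, the mitochondrial aspartate aminotransferase, fell by 0.29 on the log2 scale, MIF, which has phenylpyruvate tautomerase activity, fell by 0.53, and KYAT1, named after its value was seen, rose (0.42). With overexpression GOT2 (-0.19) and MIF (-0.24) fell and 0 rose, where 10.3% of all genes fell and 9.55% rose. IL4I1 did not pass the filter in either comparison. Without CD146 shRNA replicate 3 the call of KYAT1 was lost, and 0 rose.

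Tetrahydrobiopterin, the cofactor of aromatic amino acid hydroxylases, is made and recycled by a separate set of enzymes. Of these 8 genes 6 fell and 0 rose with the CD146 shRNA, with a median log2 fold change of -0.38, against 0.0010 over all genes, of which 28.5% fell and 26.8% rose. SPR, sepiapterin reductase, fell to 5.92 ± 0.917 CPM with the CD146 shRNA, against 22.5 ± 1.05 CPM with the control shRNA (SD, n = 3 each; log2 fold change -1.91, SE 0.11, edgeR adjusted p = 8.7e-19). PCBD1, a recycling dehydratase, fell by 0.60 and PCBD2 by 0.41 on the log2 scale. GCHFR and QDPR, named after their values were seen, fell as well, by 0.56 and 0.36. GCH1 and PTS, which carry out the first steps of synthesis, were not called. SPR, PCBD1, PCBD2, GCHFR, QDPR, GCH1 and PTS were not called with overexpression.

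The end products fumarate and acetoacetate are used by enzymes of the citric acid cycle and of ketone body metabolism. Of the 11 genes tested 4 rose and 3 fell with the CD146 shRNA, where 55.3% of all genes were called. OXCT1, which activates acetoacetate for use in mitochondria, fell to 107 ± 3.72 CPM with the CD146 shRNA, against 217 ± 4.77 CPM with the control shRNA (SD, n = 3 each; log2 fold change -1.02, edgeR adjusted p = 4.3e-22). ACAT2, the cytosolic thiolase, rose to 108 ± 3.83 CPM with the CD146 shRNA, against 58.9 ± 1.20 CPM with the control shRNA (log2 fold change 0.87). MDH2 fell (-0.42), and AACS, which activates acetoacetate in the cytosol, rose (0.21). BDH1 (-0.27), ACAT1 (0.12) and BDH2 (0.27), named after their values were seen, were called too. Without CD146 shRNA replicate 3, 2 rose and 3 fell. With overexpression ACAT2 (-0.29), MDH2 (-0.18) and FH, fumarase (-0.17), fell and 0 of 11 rose, beside 10.3% and 9.55% of all genes.

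Among other uses of tyrosine, most genes of catecholamine and pigment synthesis were at or near 0. TYR had 0 counts in all 12 libraries and TH had 1 count in 1 library. MAOB, a monoamine oxidase, fell to 2.62 ± 0.412 CPM with the CD146 shRNA, against 11.97 ± 1.76 CPM with the control shRNA (SD, n = 3 each; log2 fold change -2.21, edgeR adjusted p = 9.2e-16). With overexpression MAOA fell to 29.9 ± 0.676 CPM, against 49.5 ± 5.47 CPM with pLVX (log2 fold change -0.72, edgeR adjusted p = 2.5e-13), DDC fell (-0.18) and DBH rose (0.53).

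Of 5 carriers of aromatic amino acids tested with the CD146 shRNA, 2 rose and 2 fell, where 26.8% of all genes rose and 28.5% fell. SLC7A5, the light chain of the large neutral amino acid exchanger, fell to 315 ± 17.9 CPM with the CD146 shRNA, against 705 ± 22.5 CPM with the control shRNA (SD, n = 3 each; log2 fold change -1.16, edgeR adjusted p = 3.7e-24), and its heavy chain SLC3A2 fell by 0.40 on the log2 scale. The facilitated carriers SLC43A1 and SLC43A2 each rose by a log2 fold change of 1.45, SLC43A1 to 37.8 ± 1.62 CPM against 13.9 ± 1.12 CPM with the control shRNA. With overexpression SLC6A14 rose (3.25), SLC38A4, named after its value was seen, rose as well (0.92), and the other 5 tested were not called. Among all genes tested with overexpression, 9.55% rose and 10.3% fell.

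Of 11 regulators known to act on TAT or HPD transcription in liver, mostly from work in rodents, 7 passed the filter with the CD146 shRNA, and of these 1 rose and 4 fell, beside 26.8% and 28.5% of all genes. PPARGC1A, a coactivator of fasting genes, rose to 51.8 ± 3.10 CPM with the CD146 shRNA, against 24.9 ± 2.31 CPM with the control shRNA (SD, n = 3 each; log2 fold change 1.05, edgeR adjusted p = 1.7e-16). CEBPA (-0.81), CEBPB (-0.48), the glucocorticoid receptor NR3C1 (-0.13) and FOXA1 (-1.17), the last named after its value was seen, fell. FOXA2 had 0 counts in all 6 libraries labelled Hep3B, and FOXA3 and ONECUT1 did not pass the filter there. Without CD146 shRNA replicate 3, 1 rose and 3 fell. With overexpression NR3C1 (0.20), HNF4A (0.12) and CEBPA (0.14) rose and 0 of 11 fell, beside 9.55% and 10.3% of all genes.

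Genes for the breakdown of other amino acids were counted in the same way. With the CD146 shRNA 1 of 3 genes tested of tryptophan breakdown rose (QPRT, 3.01), as did 1 of 3 of histidine breakdown (AMDHD1, 0.82). Both are named after their values were seen. QPRT was low, at 33 to 46 counts with the CD146 shRNA and 3 to 8 counts with the control shRNA. Of the 8 tryptophan genes listed, 5 did not pass the filter in this comparison. Of 15 genes of branched chain amino acid breakdown, 9 fell and 1 rose, MCCC1 by a log2 fold change of 0.59, with a median of -0.23, where 28.5% of all genes fell and 26.8% rose. DBT, a subunit of the branched chain dehydrogenase, fell by 0.55, and PCCB and MCCC2 fell by 0.26 each. With overexpression 4 of 16 genes of the branched chain list fell and 0 rose, ACADSB (-0.33), DLD (-0.24), HIBADH (-0.18) and HIBCH (-0.15), and of the histidine list UROC1 rose (0.77) and HAL fell (-0.65). QPRT (-0.23) and AFMID (-0.16) of the tryptophan list fell, and 0 rose. Among all genes tested with overexpression, 10.3% fell and 9.55% rose.

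**Figure D4:**
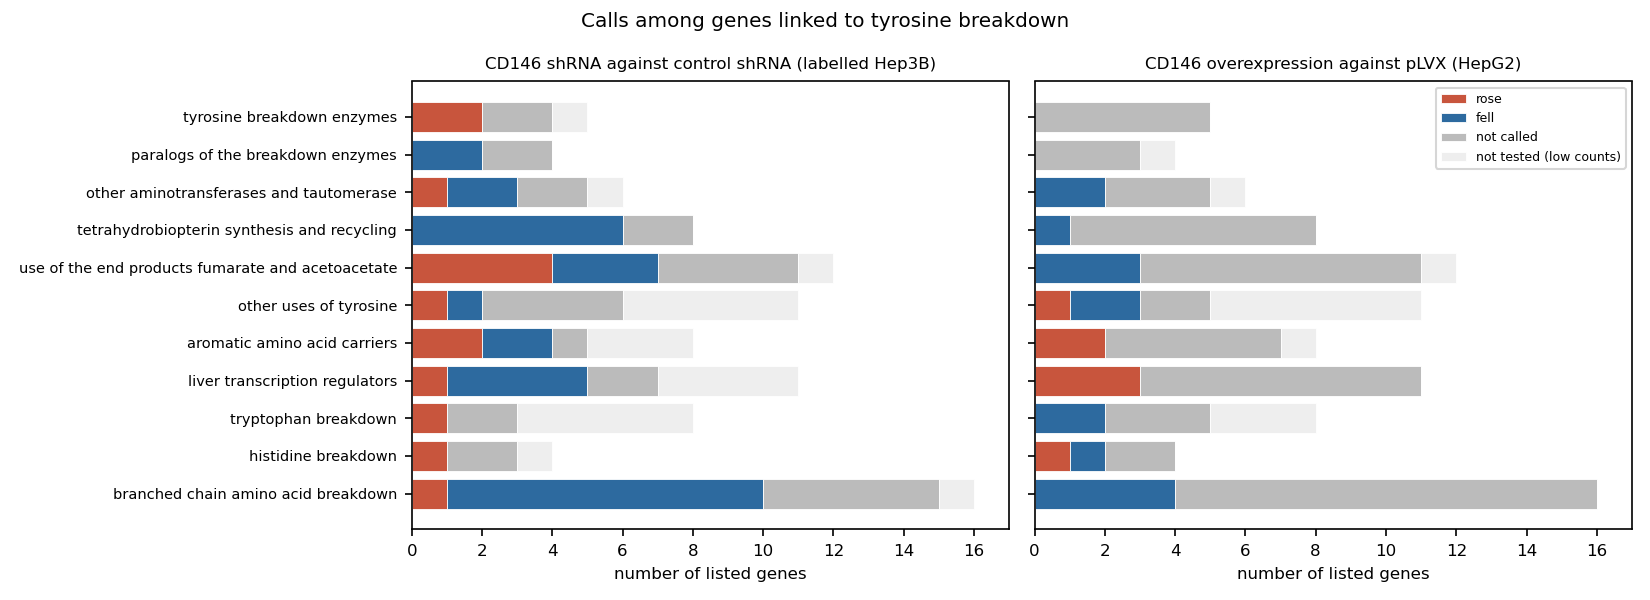
Number of genes in each list that rose, fell, were not called or were not tested because of low counts, for the CD146 shRNA against the control shRNA and for CD146 overexpression against pLVX (edgeR, adjusted p under 0.05). With the CD146 shRNA the tetrahydrobiopterin list has 6 falls of 8 and the branched chain list 9 of 16 (15 tested), and with overexpression the 5 breakdown enzymes have no call. Of all genes tested, 28.5% fell with the CD146 shRNA and 19.8% were called with overexpression. The bar of the breakdown enzymes with the CD146 shRNA includes HPD, whose rise was already known.

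The genes most like HPD were sought among 6572 called protein-coding genes of at least 5 CPM in each line, by Pearson r of log2(CPM + 1) over the 12 libraries after the mean of each line was removed. GDPD5 (r = 0.996), AP3D1 (r = 0.996) and PCID2 (r = 0.995) came first. Their log2 fold changes with the CD146 shRNA were 1.99, 0.68 and 1.08, and with overexpression 0.029, 0.013 and -0.015. For HGD the first 3 were MT-CO1 (r = 0.982), SCAMP2 (r = 0.980) and FKBP10 (r = 0.978). For GSTZ1 and FAH the highest r were 0.722 (EXOC6B) and 0.743 (SMTN), and TAT was not compared because it did not pass the filter in both lines. The points share libraries and depth, and the 2 groups of each line weigh most in r.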

How the data were processed

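The authors deposited raw RNA-seq counts, 1 value per gene and library. The authors also deposited FPKM, scaled by gene length and library size and rounded to 2 decimals. Tools listed in the submitters' processing notes are HISAT2 2.2.1, HTSeq 0.6.1 and cutadapt 1.9.1. The genome build, annotation and strand setting are not given in the sources used here. Symbols were found for 61757 of 61806 IDs. Differences in counts were tested by edgeR 4.0.16 (quasi-likelihood F test in R 4.3.3, TMM scaling, filterByExpr, each line alone), 2-sided, with Benjamini-Hochberg adjustment over all genes tested. A gene is called, or written as having risen or fallen, at an adjusted p below 0.05. CPM are TMM-scaled within a line. SE is the absolute log2 fold change over the square root of F. Approximate 95% intervals use this SE. The scripts were tested on simulated data. DESeq2 1.42.0 and limma 3.58.1 served as alternatives. Coordinates and transcript lengths were looked up by gene ID in GENCODE 29 (GRCh38), not necessarily the gene models behind the counts. The counts without CD146 shRNA replicate 3 were added after seeing the data. No replicate pair was a repeated deposit, as chi-square per gene was 1.74 to 3.93.

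The members and lists were chosen with earlier results of these data known. From each list, the up to 4 genes with the smallest adjusted p per comparison among those called with at least 5 CPM in the higher group were named, and other called genes are said to be named after their values were seen where they are singled out. Some listed genes and motifs are counted but not reported here by name. The genes most like a member were the 3 with the highest r.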

Additional observations from a re-analysis of the deposited data

Results flagged for a closer look

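For HGD the effect of higher CD146 differed between the lines in the contrast over all 12 libraries, by 1.01 on the log2 scale (edgeR adjusted p = 2.7e-05). This is nearly all the knockdown difference of HGD and not evidence apart from it. The same contrast was 1.50 for HPD, a description with no test, because it is nearly all the knockdown difference that was known when the list was drawn up. The log2 fold change of HGD was 1.02 with the CD146 shRNA in the libraries labelled Hep3B and -0.010 with overexpression in HepG2, and that of HPD was 1.45 with the CD146 shRNA and 0.042 with overexpression. Line and kind of perturbation cannot be told apart.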

How the results depend on the processing

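With the CD146 shRNA, HGD kept its direction and its call under all 8 alternatives and all 6 fits without 1 library, with log2 fold changes of 0.44 to 1.02 under the alternatives. The HPD values, which were known when the list was drawn up and are given without a test, lay between 1.39 and 1.46. The values of GSTZ1 (-0.079 to 0.056) and FAH (-0.24 to 0.0099), not called in any of these fits, changed sign when 1 library was left out. With overexpression, leaving out 1 library gave -0.095 to 0.065 for TAT and -0.055 to 0.017 for HGD, again without a call. Without a scaling factor HPD was called (0.11), and TAT (0.045) and HGD (0.062) turned positive. Limma gave 0.11 for HPD, called with both pseudocounts, 0.054 and 0.034 for TAT and 0.061 and 0.060 for HGD with pseudocounts of 0.1 and 1. FPKM carry no TMM scaling. The count of genes called with overexpression was 3037 with edgeR, 1642 with DESeq2 and 1590 and 1614 with limma. The difference between the lines for FAH lay between -0.20 and 0.054 without 1 library.

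Same-numbered replicates deviated together with r between -0.044 and 0.11, and different-numbered ones with r between -0.11 and 0.091. With 3 libraries per group, these r cannot tell whether the numbers pair the samples. With the replicate block, 9543 genes were called with the CD146 shRNA, 2947 with overexpression and 6847 for the difference, against 9385, 3037 and 6866 without it, and no call of a member changed. Depth limits TAT in the libraries labelled Hep3B, at 2 to 11 counts, HGD, at 24 to 62 counts, and FAH, at 27 to 47 counts.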
